A study of Mus musculus with 9 samples.

Results

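The Eph receptors, the ephrins, the Slits, the Robo receptors and the Slit-Robo GTPase activators were followed in ribosome-bound RNA of the dorsal striatum, from C57BL/6 mice aged 28 postnatal days. The set was a list of symbols, namely 9 Epha, 5 Ephb, 5 Efna, 3 Efnb, 3 Slit, 3 Robo and 3 Srgap genes, and all 31 were found among the 47729 gene identifiers. Membership used no measured value, but the list was chosen with earlier results of these data known. There were 3 groups of 3 libraries. The first group was D1-Cre-flTrkB-RT mice with stereotypy, which is repetitive behavior, and the second was D1-Cre-flTrkB-RT mice without stereotypy. The control group was D1-Cre-RT mice. All 3 groups carried D1-Cre and the RiboTag (RT), a ribosomal protein with an HA tag that Cre switches on, so that the polyribosomes of D1 medium spiny neurons can be pulled down with beads against the tag. These neurons (MSNs) carry the direct output pathway of the striatum. The controls lacked the floxed TrkB allele (flTrkB) that Cre deletes in the other groups. The labels name biological triplicates and do not give the D1-Cre line, the sex or the number of mice per library.

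Eph receptors are receptor tyrosine kinases, and their ligands, the ephrins, stay on the membrane of the neighboring cell, so that contact can send a forward signal into the receptor cell and a reverse signal into the ephrin cell. Ephrin-A proteins hang on a lipid anchor and ephrin-B proteins span the membrane. Slits are secreted ligands of the Robo receptors, and the Srgap proteins bind Robo tails and act on small GTPases. In the forebrain these systems steer growing axons and migrating cells, and Eph and ephrin proteins also act at dendritic spines of mature neurons.

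The targeted gene was checked first. Ntrk2, the gene of the BDNF receptor TrkB, had 34.3, 43.9 and 40.7 CPM (the reads of a gene scaled to a fixed total for every library) with stereotypy and 23.4, 14.1 and 19.2 CPM without stereotypy, against 319, 385 and 487 CPM in controls. All libraries with the floxed allele lay far below all controls, in the direction the labels give. Ntrk2 was higher with stereotypy than without (log2 change 1.05, limma adjusted p = 0.0206), and the libraries of these groups did not overlap. Libraries held 27103152 to 40578512 reads in all, and 3 reads, the limit that a count of 0 allows, came to 0.0739 to 0.111 CPM, which covers counting error only. No library of RNA before precipitation was analysed here, so enrichment of D1 MSN RNA was not measured. Drd1, the D1 receptor gene, averaged 887 CPM with stereotypy and 599 CPM without, against 805 CPM in controls. Within the no stereotypy and the control groups, replicate 3 had the highest summed markers of D2 MSNs and of cortical excitatory neurons, and calls of the members that changed without both of these libraries are given below. Calls by direction depended on the tool: limma called 490 genes higher and 209 lower with stereotypy against control, and edgeR 321 and 322; without stereotypy against control the counts were 515 and 412 by limma and 411 and 493 by edgeR; and for both groups against control they were 503 and 281 by limma and 340 and 389 by edgeR.

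Most members were present, over a wide range of levels. To compare genes, CPM was divided by the length of the longest principal transcript (CPM per kb). In controls the highest was Epha4, a receptor for ephrins of both classes, with 59.8 CPM per kb, followed by the transmembrane ligand Efnb3 with 54.8, the receptor Ephb6, whose kinase domain is inactive, with 43.6, the Slit receptor Robo2 with 37.8 and the receptor Ephb1 with 30.5 CPM per kb. The most abundant ephrin-A was Efna3 with 22.3 CPM per kb, the most abundant Srgap was Srgap3 with 22.4, and the most abundant Slit was Slit3 with 8.93 CPM per kb. Of the 30 neighboring pairs in the order of control levels, 8 were separated by more than the sum of the SDs of both genes (n = 3 each). Epha4 and Efnb3 were not among these 8, and dividing by the length of all exons joined put Efnb3 first and Epha4 second.

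**Figure D1:**
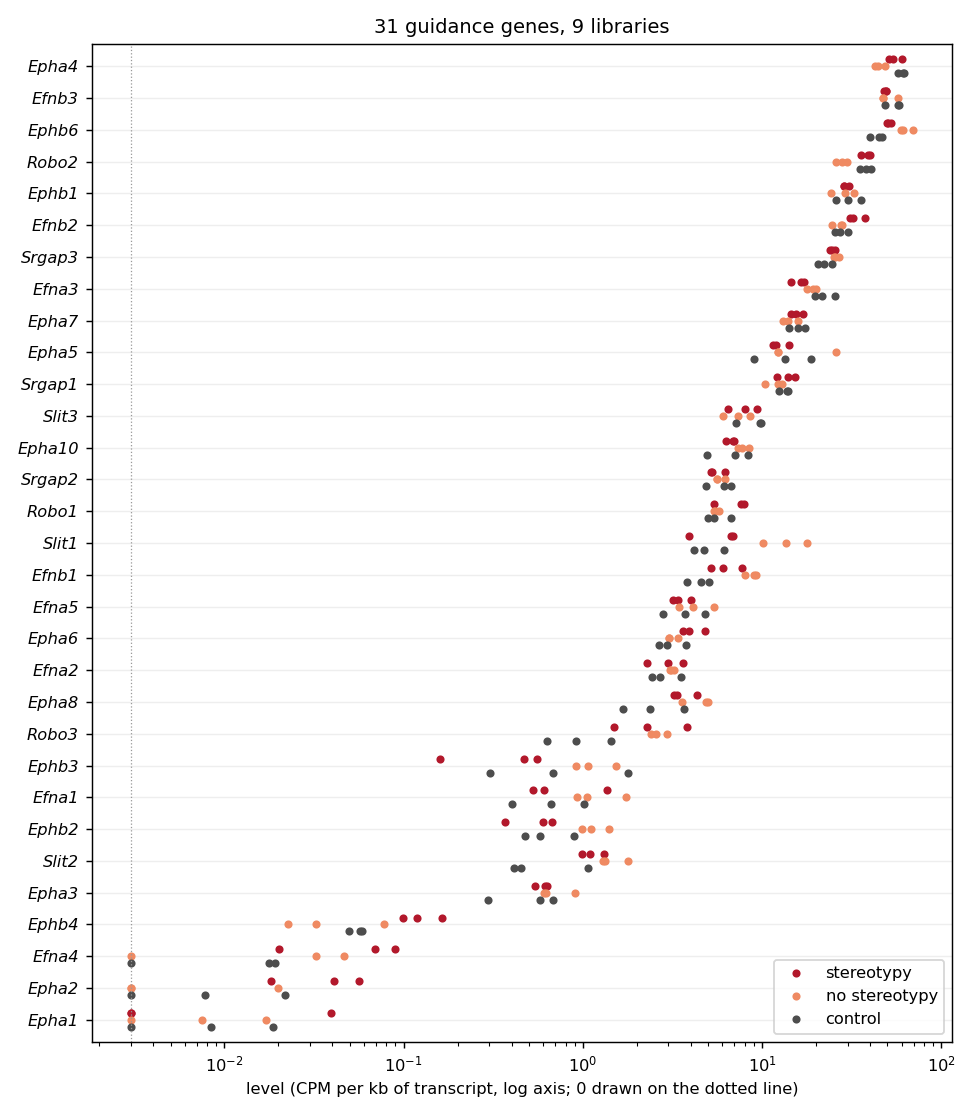
Levels of the 31 genes in CPM per kb of transcript on a log axis, in order of the control mean, with 1 point per library (stereotypy, no stereotypy, control from top to bottom within a gene). Epha4, at a control mean of 59.8 CPM per kb, is at the top, and Epha1, Epha2, Efna4 and Ephb4 lie at the bottom.

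A gene was tested where it had at least 1 CPM in at least 3 libraries, which 27 of the 31 members and 13695 genes in all did. The 4 others were near absence of signal. Epha1 had 10 reads over all 9 libraries and was at 0 in 4 of them, Efna4 had 15 reads and Epha2 had 20. Ephb4, an EphB receptor of blood vessels, had 95 reads, with 0.430, 0.707 and 0.516 CPM in the stereotypy group and 0.336, 0.140 and 0.0986 CPM in the no stereotypy group, against 0.246, 0.255 and 0.215 CPM in controls. Vascular marker sums in these groups were 37.3 to 96.4, 11.6 to 25.3 and 20.6 to 44.3 CPM in the same order. The control sums include 13.7, 9.59 and 28.3 CPM of 1 marker, Tagln, which had 1.22 to 2.22 CPM in all libraries with the floxed allele. The part of the vascular markers in Ephb4 was not tested.

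Without stereotypy, 7 guidance genes differed from controls. The Slit ligands Slit1 and Slit2, the ephrin ligand Efnb1 and the receptors Robo3 and Ephb6 were higher, and the receptors Robo2 and Epha4 were lower. These 7 are 25.9% of the 27 tested members, beside 6.77% of all tested genes (limma, adjusted p under 0.05). By direction, 5 were higher, beside 3.76% of all genes, and 2 were lower, beside 3.01%. The median log2 change of the 27 was 0.20, beside 0.03 for all genes. In bulk RNA, a change in the number of cells and a change in RNA per cell cannot be told apart. Changes are on the log2(CPM + 1) scale, which understates those of low genes.

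In GENCODE M21 on GRCm38, the genes of the ligands called in any comparison are Slit1 at chr19:41600257-41743665 (minus strand), Slit2 at chr5:47983138-48307733 (plus strand), Efnb1 at chrX:99136130-99148991 (plus strand) and Efna3 at chr3:89313899-89322965 (minus strand). Those of the receptors are Robo2 at chr16:73891839-74411825 (minus strand), Robo3 at chr9:37415669-37433246 (minus strand), Epha4 at chr1:77367185-77515088 (minus strand), Ephb2 at chr4:136647539-136835988 (minus strand) and Ephb6 at chr6:41605482-41620509 (plus strand).

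Slit1, a secreted repellent, had 89.7, 68.3 and 50.8 CPM without stereotypy, against 20.9, 23.9 and 30.9 CPM in controls. The lowest library without stereotypy was still well above the highest control. The log2 change was 1.41 ± 0.25 (SE; limma adjusted p = 0.00867), a 2.65-fold difference. Slit2, another Slit, had 12.8, 13.3 and 17.8 CPM without stereotypy, against 4.52, 4.13 and 10.6 CPM in controls. The groups did not overlap, but control replicate 3 stood close to the libraries without stereotypy. Its log2 change was 1.16 ± 0.28 (limma adjusted p = 0.0307). That call was lost when stereotypy replicate 1, any library without stereotypy, or control replicate 1 or 2 was left out (adjusted p 0.0526 to 0.113), and edgeR gave an adjusted p of 0.0563.

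Efnb1, a transmembrane ephrin-B encoded on the X chromosome, had 29.9, 29.2 and 26.2 CPM without stereotypy, against 12.5, 14.8 and 16.5 CPM in controls. The groups were clearly apart, with a log2 change of 0.92 ± 0.15 (limma adjusted p = 0.00697). Ephb6, which can pair with other Eph receptors although its own kinase is inactive, had 262, 229 and 225 CPM without stereotypy, against 175, 149.5 and 168 CPM in controls. All libraries without stereotypy exceeded all controls, and the log2 change was 0.54 ± 0.09 (limma adjusted p = 0.00753). Slit1, Efnb1 and Ephb6 kept their calls in this comparison under every alternative run and with each library left out in turn.

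Robo3, the Robo that in mammals has lost strong Slit binding and takes part in midline crossing, had 14.1, 12.3 and 11.5 CPM without stereotypy, against 6.90, 3.03 and 4.42 CPM in controls. The groups did not overlap, and the log2 change was 1.29 ± 0.30 (limma adjusted p = 0.0293). The call was lost when any library without stereotypy, or control replicate 2 or 3, was left out (adjusted p 0.0512 to 0.114). Robo2, the main Robo here, had 179, 168 and 154 CPM without stereotypy, against 226, 212 and 241 CPM in controls. Every library without stereotypy was below every control, with a log2 change of -0.44 ± 0.09 (limma adjusted p = 0.0162). Leaving out no stereotypy replicate 2 gave an adjusted p of 0.0581 and leaving out control replicate 1 gave 0.0515. With replicate 3 of both groups left out the log2 change was -0.34 (adjusted p = 0.0778).

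Epha4 had 279.5, 306 and 270.3 CPM without stereotypy, against 360.2, 385 and 389.7 CPM in controls. The groups did not overlap. The log2 change was -0.41 ± 0.09 (limma adjusted p = 0.0225). It missed the threshold without no stereotypy replicate 1 (adjusted p = 0.0957), no stereotypy replicate 3 (0.0538) or control replicate 3 (0.0518). Without replicate 3 of both groups, Epha4 had a log2 change of -0.35 (limma adjusted p = 0.0907) and Robo3 one of 1.33 (0.073). Epha4, Slit2 and Robo3 also missed it with the mean level of 47 glial and vascular markers as a covariate, with adjusted p of 0.0558, 0.0553 and 0.0612 and log2 changes that kept their signs. That marker mean was 2.39 to 2.92 (log2) without stereotypy and 2.39 to 2.75 in controls. Markers of MSNs moved with Robo2 and Epha4 in this comparison. Of 7 markers shared by MSNs, 2 were lower without stereotypy, for example Foxp1 (-0.52, limma adjusted p = 0.0091), beside log2 changes of -0.44 for Robo2 and -0.41 for Epha4. The 7 D1 MSN markers summed to 1405 to 1795 CPM without stereotypy, against 1567 to 2297 CPM in controls; none was called by limma, 4 were lower and 1 higher at an unadjusted p under 0.05, and edgeR called 2 lower and DESeq2 3. The part of these markers in the lower Robo2 and Epha4 was not tested. The libraries of 9 members did not overlap between these groups, 33.3% of the 27, beside 25.5% of all tested genes.

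**Figure D2:**
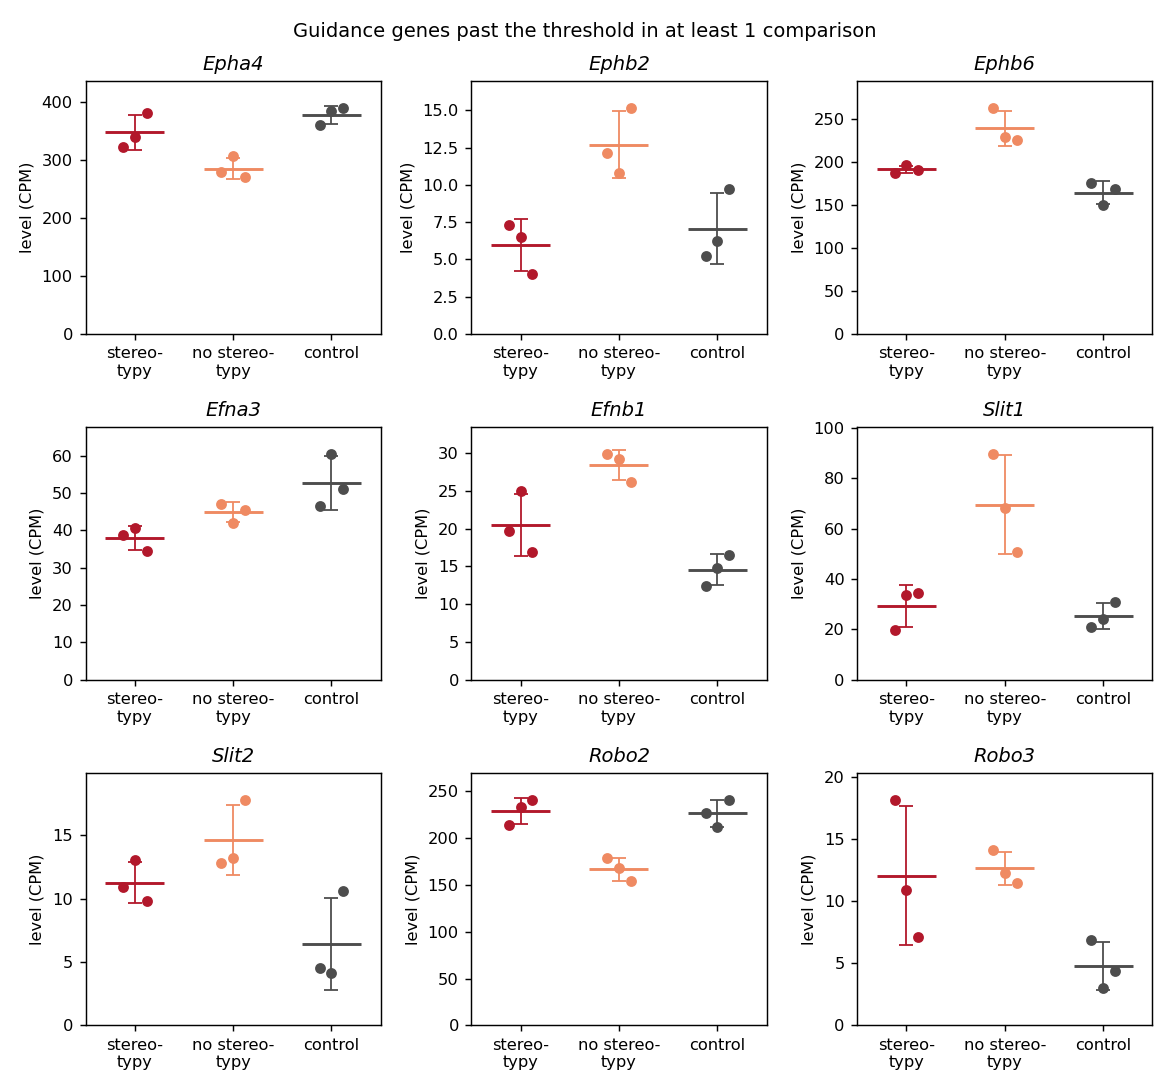
Level in CPM of the 9 guidance genes that passed the threshold in at least 1 comparison, with 1 point per library, a bar for the group mean and whiskers of 1 SD (n = 3). Slit1 stands at 50.8 to 89.7 CPM without stereotypy, above all 6 other libraries, and Robo2 at 154 to 179 CPM, below all 6.

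With stereotypy, 1 guidance gene differed from controls. Efna3, the main ephrin-A here and a lipid-anchored ligand of EphA receptors, was the only member called, 3.70% of the 27, beside 5.10% of all tested genes. By direction the shares of all genes were 1.53% lower and 3.58% higher. It had 38.7, 40.5 and 34.4 CPM with stereotypy, against 46.4, 60.4 and 51.1 CPM in controls. The groups did not overlap, and the log2 change was -0.46 ± 0.12 (limma adjusted p = 0.0457). This call sat at the threshold: leaving out any library other than control replicate 1 ended it, with log2 changes of -0.51 to -0.36 and adjusted p of 0.0513 to 0.139. A covariate of other-neuron markers and a fit to the 6 libraries compared also ended it, with adjusted p of 0.069 and 0.0859. So did testing with no filter (0.0783) and the glial and vascular covariate (0.407). The glial and vascular covariate did not overlap between stereotypy and control, so its fit could not separate the markers from these groups. Without replicate 3 of the no stereotypy and control groups the log2 change was -0.48 (limma adjusted p = 0.0733). No member was called higher by limma or edgeR, 1 (Robo3) was by DESeq2, and 6 were higher at an unadjusted p under 0.05. The median log2 change of the members was 0.03, beside 0.05 for all genes. Of 12 astrocyte markers, 7 were higher with stereotypy than in controls, and none was called lower. The 12 summed to 641 to 670.0 CPM, against 454 to 559 CPM. Much of this sum was 1 gene, Slc4a4, with 387, 366 and 429 CPM with stereotypy, against 289, 288 and 249 CPM in controls. Aqp4, a low marker, averaged 4.58 CPM, against 1.44 CPM. The part of these markers in the values of the members was not tested.

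Several of the genes that changed without stereotypy had means between those of the other groups with stereotypy. Efnb1 had 19.7, 25.03 and 16.9 CPM with stereotypy, all above the controls by a small margin at the lower end, with a log2 change of 0.46 (95% interval 0.12 to 0.80, limma adjusted p = 0.104). Ephb6 had 187, 196 and 190.1 CPM, also all above the controls, with a log2 change of 0.22 (0.02 to 0.42, limma adjusted p = 0.167). Robo3 had 18.2, 10.9 and 7.12 CPM, spread widely but with no library below a control, and its log2 change was 1.14 ± 0.30 (limma adjusted p = 0.0545). Robo3 passed without stereotypy replicate 3 (adjusted p = 0.0413) or control replicate 1 (0.0376). Slit2 had 10.96, 13.1 and 9.81 CPM, of which the lowest fell below control replicate 3, and its log2 change was 0.82 (0.21 to 1.43, limma adjusted p = 0.106). Without replicate 3 of the control and no stereotypy groups, Slit2 passed in this comparison, with a log2 change of 1.20 (adjusted p = 0.00605), and it passed with control replicate 3 alone left out (0.0107). Efnb2, a transmembrane ephrin-B, had 149, 155 and 180.2 CPM with stereotypy, against 122, 144 and 129.8 CPM in controls. Its libraries did not overlap either, and its log2 change of 0.28 missed the threshold (limma adjusted p = 0.125). In all, the libraries of 5 members did not overlap with the controls, 18.5% of the 27, beside 27.7% of all tested genes.

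Across both groups with the floxed allele, 4 members were higher than in controls, namely Efnb1, Ephb6, Robo3 and Slit2. They are 14.8% of the 27, beside 5.72% of all tested genes and 3.67% for those that were higher. None was called lower by limma, beside 2.05% of all genes; 3 were lower at an unadjusted p under 0.05, and edgeR called 1 lower (Efna3) and DESeq2 called 2 (Epha4 and Efna3). The mean log2 changes were 0.69 ± 0.13 for Efnb1 (limma adjusted p = 0.0137), 0.38 ± 0.08 for Ephb6 (0.0196), 1.21 ± 0.26 for Robo3 (0.0231) and 0.99 ± 0.24 for Slit2 (0.0373). The 6 libraries with the allele all lay above the 3 controls for Efnb1, Ephb6 and Robo3, and 3 members are 11.1% of the 27, beside 9.30% of all genes; for Slit2 a control lay within their range. Slit1, with 19.7, 33.8 and 34.5 CPM with stereotypy, missed the threshold in this mean (log2 change 0.80, limma adjusted p = 0.0538). These comparisons share the control libraries, so their calls are not separate evidence.

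Leaving out libraries moved these 4 calls. Efnb1 lost its call in the absence of control replicate 1 (limma adjusted p = 0.0636), and Ephb6 without stereotypy replicate 2 (0.0557) or control replicate 2 (0.0606). Robo3 was lost without stereotypy replicate 2, no stereotypy replicate 1, or control replicate 2 or 3 (0.0528 to 0.0784), and Slit2 without any library but control replicate 3 (0.0546 to 0.14). Without replicate 3 of the no stereotypy and control groups, Robo3 had a log2 change of 1.22 (limma adjusted p = 0.0626) and Slit1 passed (1.05, adjusted p = 0.0222). With the glial and vascular covariate the log2 changes were 0.56, 0.28, 0.94 and 0.57 for Efnb1, Ephb6, Robo3 and Slit2, and all 4 calls were lost (adjusted p 0.317 to 0.562). With that covariate 66 of all genes passed, beside 784 without it. The marker mean was 3.05 to 3.43 with stereotypy and 2.39 to 2.92 without stereotypy, against 2.39 to 2.75 in controls. The range with stereotypy did not overlap with that of either other group, so the fit could not separate these markers from the stereotypy group. None of the 50 listed markers was at 0 in every library.

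The starts of these 4 genes are shown because each of the 4 was called higher in the mean of both groups. The letters are RefSeq sequence upstream of the gene start (table on GRCm38.p6), cut where GENCODE M21 already has the transcript, so that 179 to 250 bases remain. Capitals mark a match on either strand to any of the motifs searched. The GC box was searched as GGGCGG. The short CRE site (cAMP response element) was TGACG, which lies within the full element, TGACGTCA, that was also searched. The TATA box was taken as TATAAA. The AP-1 site was TGANTCA, where N is any base. The last motif searched was the CCAAT box, spelled as in its name.
Efnb1, chrX:99135811-99136060, plus strand: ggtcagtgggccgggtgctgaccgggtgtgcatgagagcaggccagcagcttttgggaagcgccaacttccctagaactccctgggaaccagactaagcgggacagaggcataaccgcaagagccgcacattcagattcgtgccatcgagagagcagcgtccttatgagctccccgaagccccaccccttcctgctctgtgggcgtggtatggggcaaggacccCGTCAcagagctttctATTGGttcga
Ephb6, chr6:41605261-41605481, plus strand: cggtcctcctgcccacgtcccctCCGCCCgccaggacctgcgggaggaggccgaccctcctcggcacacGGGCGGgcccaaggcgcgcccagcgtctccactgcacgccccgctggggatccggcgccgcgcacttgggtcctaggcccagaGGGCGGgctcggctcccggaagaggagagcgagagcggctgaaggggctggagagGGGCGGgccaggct
Robo3, chr9:37433247-37433425, minus strand: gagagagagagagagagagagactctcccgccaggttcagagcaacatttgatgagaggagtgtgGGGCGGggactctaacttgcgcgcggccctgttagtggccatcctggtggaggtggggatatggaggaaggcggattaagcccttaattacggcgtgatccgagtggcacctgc
Slit2, chr5:47982905-47983137, plus strand: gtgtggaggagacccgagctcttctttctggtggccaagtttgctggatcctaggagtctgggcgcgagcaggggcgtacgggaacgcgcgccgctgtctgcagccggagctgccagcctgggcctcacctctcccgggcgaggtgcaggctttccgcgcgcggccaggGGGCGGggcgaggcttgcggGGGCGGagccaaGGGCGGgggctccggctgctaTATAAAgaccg
The printed stretches hold 4 GC boxes for Ephb6, 3 for Slit2 and 1 for Robo3, and Efnb1 has a short CRE site and a CCAAT box in place of any GC box. Slit2 alone has a TATA box. Over 250 bases, a GC box is in 32.7% of all 32851 upstream windows of the table and in 25 of the 34 windows of the 29 members it lists, a TATA box in 12.4%, a short CRE site in 17.8%, a CCAAT box in 33.8%, an AP-1 site in 6.75% and a full CRE in 1.55%. The 250 bases before the start of Ephb6, Slit2, Robo3 and Efnb1 have 76.8%, 69.6%, 61.2% and 60.0% GC, and the median of all windows is 52.4%. These are descriptions of letters and not of binding. Slit1 and Efnb3 are not shown.

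**Figure D3:**
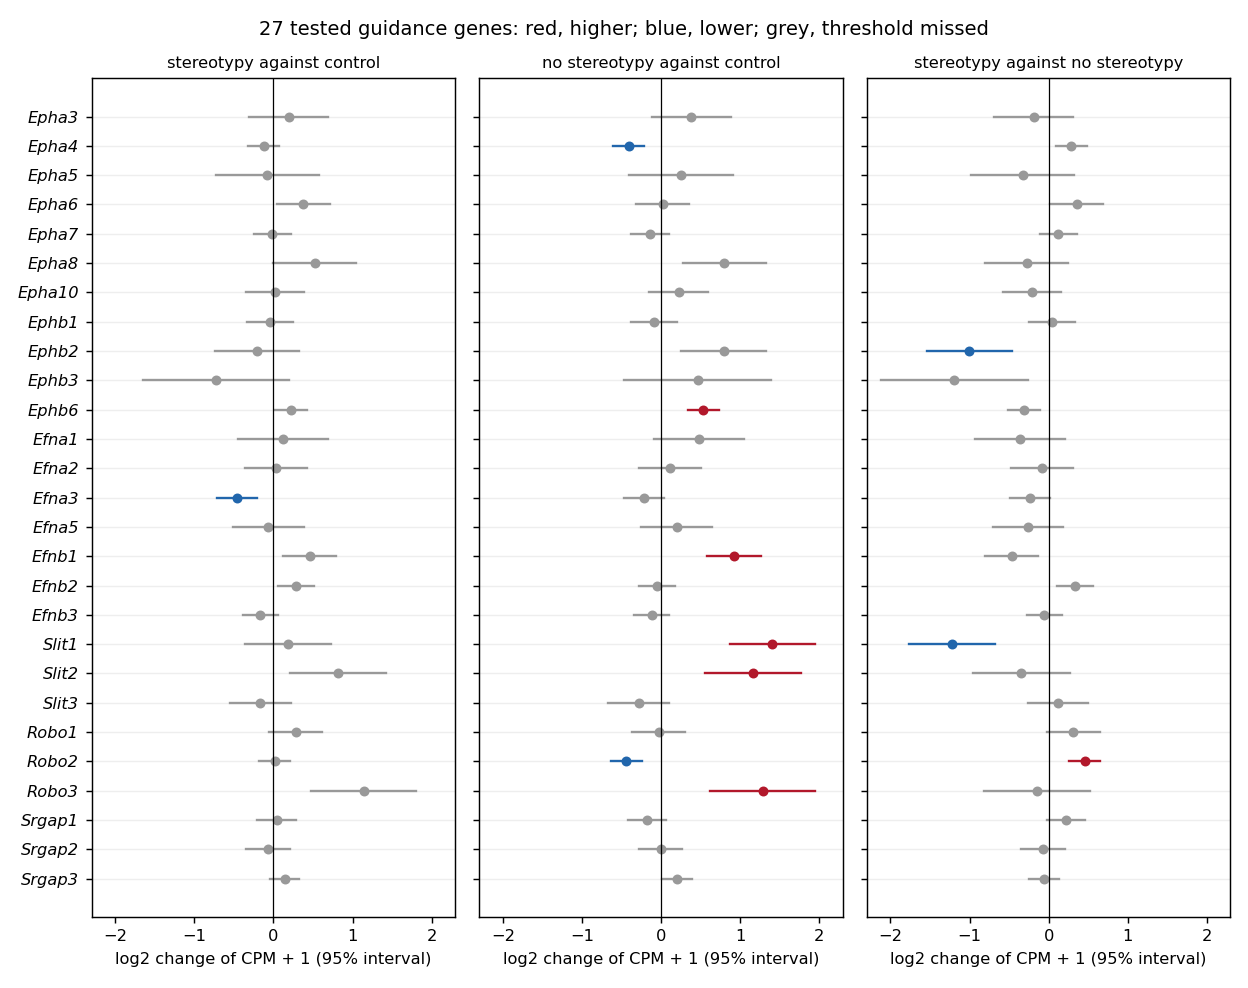
Log2 change of CPM + 1 with its 95% interval for the 27 tested genes in the comparisons of stereotypy with control, no stereotypy with control, and stereotypy with no stereotypy; red and blue mark genes past the limma threshold. The middle panel holds 7 colored genes, the left panel 1 (Efna3) and the right panel 3 (Ephb2, Slit1 and Robo2).

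Between the groups with the floxed allele, Slit1 and Ephb2 were lower and Robo2 was higher with stereotypy. These 3 members are 11.1% of the 27, beside 10.2% of all tested genes; 1 was higher, beside 6.61%, and 2 were lower, beside 3.60%. The median log2 change of the members was -0.15, beside 0.02 for all genes. This comparison is also the test of whether the changes against control differ between the groups. For Slit1 the log2 change was -1.22 ± 0.25 (limma adjusted p = 0.0226), with 19.7, 33.8 and 34.5 CPM with stereotypy, against 89.7, 68.3 and 50.8 CPM without. The groups were apart, and the values with stereotypy overlapped with those of controls. For Robo2 it was 0.46 ± 0.09 (limma adjusted p = 0.0225), with 214, 233 and 241 CPM with stereotypy, against 179, 168 and 154 CPM without. Again the stereotypy libraries sat in the range of the controls, and the log2 change of stereotypy against control was 0.02 (95% interval -0.18 to 0.22).

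Ephb2, an EphB receptor that at synapses binds NMDA receptors, had 7.34, 6.52 and 3.98 CPM with stereotypy, against 12.2, 10.8 and 15.2 CPM without. The groups did not overlap, and the log2 change was -1.001 ± 0.24 (limma adjusted p = 0.0321). Controls had 5.20, 6.25 and 9.75 CPM of Ephb2, overlapping with the libraries with stereotypy and below all of those without. The log2 change without stereotypy against control was 0.79 (limma adjusted p = 0.0799), and it passed with DESeq2 (0.0358) and without control replicate 3 (0.0283). Its relative Ephb3 had 1.97, 2.31 and 0.664 CPM with stereotypy, against 4.47, 3.81 and 6.41 CPM without, and its log2 change of -1.19 ± 0.42 missed the threshold (limma adjusted p = 0.0902). Ephb6 just missed it too (-0.31, limma adjusted p = 0.0507), and passed with edgeR (-0.34, adjusted p = 0.0497) and without replicate 3 of the no stereotypy and control groups (-0.36, limma adjusted p = 0.0481). In this comparison the libraries of 11 members did not overlap, 40.7% of the 27, beside 38.3% of all tested genes.

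The calls of Slit1, Ephb2 and Robo2 between these groups were lost without stereotypy replicate 2 or 3 or no stereotypy replicate 1 or 2 (adjusted p 0.062 to 0.119), and that of Ephb2 also without no stereotypy replicate 3 (0.0671). Leaving out any of the first 4 left at most 1 of all 13695 genes past the threshold. In those fits 2873 to 3269 genes had an unadjusted p under 0.05 by limma, beside 4089 with all libraries. Of the 27 members, 6 to 9 did, beside 9 with all libraries. Markers of several cell types moved with these groups. The summed level of 6 cortical excitatory markers was 156 to 281 CPM with stereotypy, against 579 to 1423 CPM without; 2 of the 6 were called lower (Slc17a7 and Emx1), and for all 6 the groups did not overlap. The sum of 6 D2 MSN markers was 269.9 to 444 CPM, against 617 to 1075 CPM, and that of 8 striatal interneuron markers 221 to 398 CPM, against 333 to 502 CPM, with none of these 14 called by limma or edgeR. At an unadjusted p under 0.05 by limma, 6 of the 6 D2 and 5 of the 8 interneuron markers were lower, and DESeq2 called 3 of the interneuron markers lower. With the mean of 20 such markers as a covariate, the log2 changes of stereotypy against no stereotypy were -1.22 for Slit1 (adjusted p = 0.0914), 0.47 for Robo2 (0.09) and -0.41 for Ephb2 (0.297). No gene of the 13695 passed with that covariate, and 3459 had an unadjusted p under 0.05. The covariate was 3.80 to 4.36 (log2) with stereotypy and 4.97 to 5.71 without. These ranges do not overlap, so the fit could not separate the markers from the groups. With the glial and vascular covariate, Slit1 (-1.32, adjusted p = 0.0951) and Robo2 (0.42, adjusted p = 0.153) missed the threshold, and Ephb2 (-1.48, adjusted p = 0.0488) and Ephb3 (-2.24, adjusted p = 0.0466) passed. That marker mean was 3.05 to 3.43 with stereotypy, against 2.39 to 2.92 without. These ranges do not overlap either, so this fit could not separate the glial and vascular markers from the groups. Other markers were called higher with stereotypy than without, namely 4 of 7 shared MSN markers, 2 of 7 D1 MSN markers (Drd1 and Slc35d3), 4 of 12 astrocyte, 3 of 10 vascular and 2 of 9 microglia markers. The part of the MSN markers in Robo2 was not tested. Within the no stereotypy group, the library with the highest cortical sum, 1423 CPM, had the lowest Slit1 level and the highest Ephb2 level. The same held within the stereotypy group (281 CPM). Among controls, the library with the highest cortical sum, 848 CPM, had the highest level of both genes. The part of the cortical markers in these levels was not tested.

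**Figure D4:**
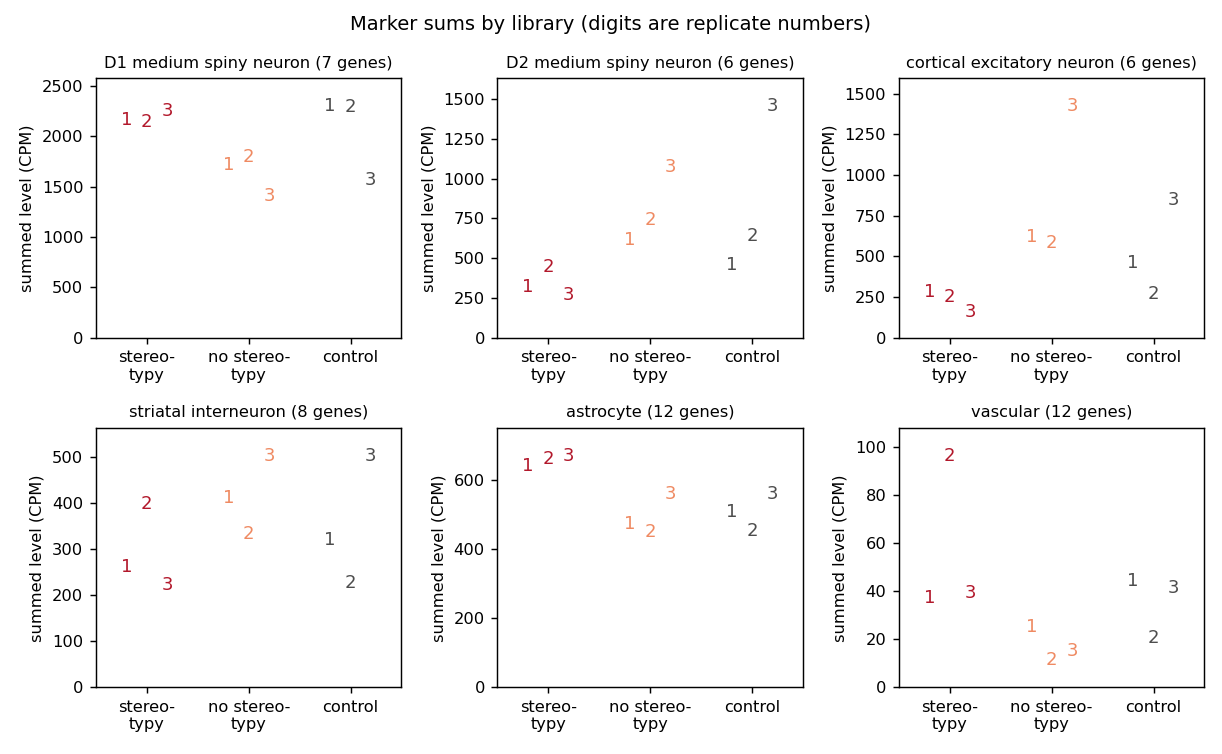
Summed CPM of markers for 6 cell types in each library, drawn as the replicate number, by group. The cortical and D2 sums of the stereotypy group lie below those of the no stereotypy group. The astrocyte sums of the stereotypy group, 641 to 670.0 CPM, lie above all 6 other libraries, and 366 to 429 CPM of them is Slc4a4.

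The shares of the 3 genes in the Slit family were set side by side, without a test. Slit1 held 38.5% ± 4.0 of the summed Slit level in CPM per kb with stereotypy and 60.5% ± 6.1 without, against 34.3% ± 2.1 in controls (SD, n = 3 each). Slit3 held 53.6% ± 3.2 with stereotypy and 32.7% ± 4.5 without, against 61.4% ± 3.7 in controls. In every library without stereotypy the share of Slit1 was above that of all 6 other libraries, and the shares with stereotypy overlapped with those of controls. The sum of the 3 Slits was 14.9 ± 3.0 CPM per kb with stereotypy and 22.6 ± 4.3 without, against 14.6 ± 2.7 in controls. Slit3 itself had 33.8, 42.1 and 48.7 CPM with stereotypy and 38.1, 44.8 and 31.6 CPM without, against 37.5, 50.7 and 51.8 CPM in controls, and it passed in no comparison.

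The summed Robo level was 47.8 ± 2.5 CPM per kb with stereotypy and 36.0 ± 2.4 without, against 44.5 ± 3.3 in controls. Robo2 held 80.1% ± 1.3 of it with stereotypy and 77.3% ± 0.6 without, against 84.98% ± 0.8 in controls (SD, n = 3 each). Robo3 held 5.35% ± 2.78 with stereotypy and 7.29% ± 0.35 without, against 2.23% ± 0.91. The shares of Robo2 in both groups were below those of all controls, and Robo3 stayed the least abundant Robo. Robo1, the other main Slit receptor, had 41.0, 60.0 and 57.7 CPM with stereotypy and 41.5, 43.4 and 40.5 CPM without, against 37.6, 40.8 and 50.9 CPM in controls. These ranges overlap, and no comparison of Robo1 passed.

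**Figure D5:**
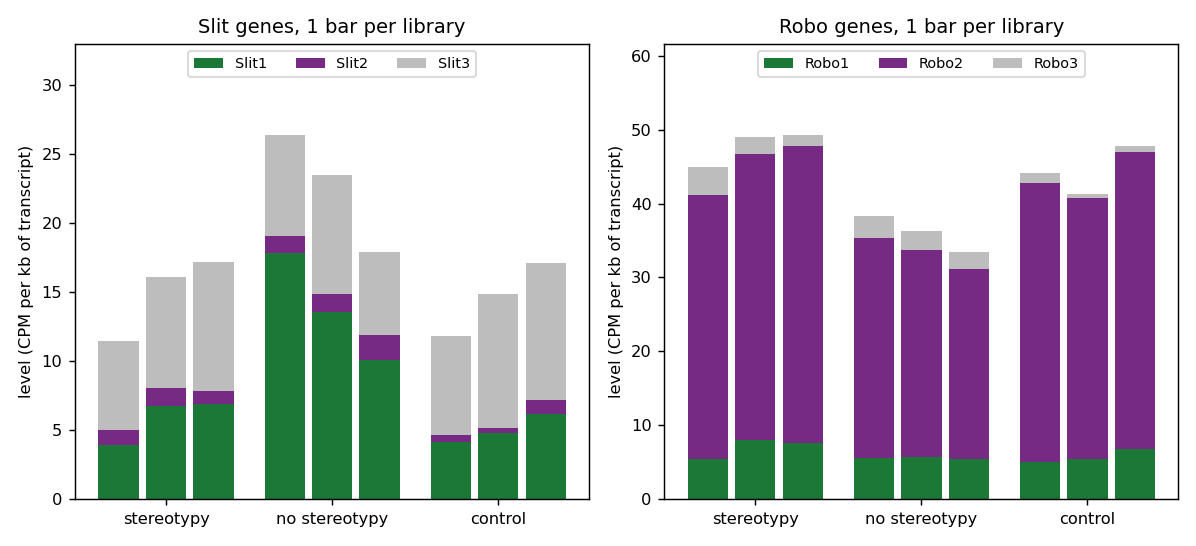
Level of the 3 Slit genes (left) and the 3 Robo genes (right) in CPM per kb of transcript, stacked, with 1 bar per library. Slit1 makes up 60.5% of the Slit bars on average without stereotypy, and Robo2 makes up most of each Robo bar.

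The remaining members passed in no comparison by limma. Srgap3, a GTPase activator with a membrane-bending domain, had 213, 225 and 218 CPM with stereotypy and 225, 237 and 222 CPM without, against 196, 218.5 and 182 CPM in controls. Its libraries without stereotypy were all above the controls, with a log2 change of 0.20 (95% interval 0.01 to 0.39, limma adjusted p = 0.192). Srgap1 and Srgap2 had log2 changes of -0.18 to 0.22 over the comparisons. None of the 3 Srgap genes was called by limma, edgeR or DESeq2 in any comparison, and by limma 1 of them had an unadjusted p under 0.05 (Srgap3, without stereotypy against control and in the mean of both groups against control). Efnb3 had 152, 157 and 155 CPM with stereotypy and 181.5, 151 and 151 CPM without, against 183, 155 and 186 CPM in controls, with overlap between all groups and log2 changes of -0.17 to -0.05 over the comparisons. Ephb1 likewise overlapped between all groups, at 133 to 142.5 CPM with stereotypy and 113 to 152 CPM without, against 121 to 166 CPM in controls.

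Among the EphA receptors that passed in no comparison, Epha7 had 97.2 to 113 CPM with stereotypy and 88.4 to 106.5 CPM without, against 95.1 to 117 CPM in controls. Epha8 had 15.8, 20.5 and 15.3 CPM with stereotypy and 22.9, 23.4 and 16.9 CPM without, against 7.91, 17.3 and 11.2 CPM in controls. Control replicate 2 lay within the range of both other groups, and the log2 change without stereotypy was 0.80 ± 0.24 (limma adjusted p = 0.0708); DESeq2 called it (0.76, adjusted p = 0.0369). Epha5 had 57.0 and 57.3 CPM in 2 libraries without stereotypy and 121 CPM in replicate 3, the highest of all 9, where the controls had 63.1, 42.3 and 87.2 CPM. Epha6 had 14.2, 15.4 and 18.9 CPM with stereotypy, against 13.3, 11.8 and 11.9 CPM without. Those groups did not overlap, and the log2 change of 0.36 missed the threshold (limma adjusted p = 0.145). Epha3, a low member with 3.06 to 3.57 CPM with stereotypy, and Epha10, a receptor with an inactive kinase domain at 16.1 to 17.7 CPM with stereotypy, had log2 changes of 0.38 and 0.22 without stereotypy against control, with 95% intervals that included 0. The libraries of Epha10 did not overlap between stereotypy and no stereotypy, where it was lower (-0.21, limma adjusted p = 0.433). The ligands Efna1, Efna2 and Efna5 had mean levels of 1.23, 6.33 and 14.2 CPM with stereotypy and 1.84, 6.69 and 17.4 CPM without, against 1.03, 6.15 and 15.2 CPM in controls, and their libraries overlapped in every comparison.

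Count models on the recovered reads gave like numbers of members with edgeR and more with DESeq2. With stereotypy against control edgeR called 1 member and DESeq2 2, beside 4.70% and 11.1% of all genes. Without stereotypy against control they called 6 and 9, beside 6.60% and 11.0%. Between stereotypy and no stereotypy they called 4 and 6, beside 9.75% and 17.1%, and for both groups against control 4 and 7, beside 5.32% and 9.68%.

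Genes that act with Eph receptors inside the cell changed in both directions. Of 28 listed genes of Eph forward signalling, all tested, 2 were higher and 2 lower across both groups with the allele (14.3%, beside 5.72% of all genes; median log2 change -0.001, beside 0.04). Tiam1, a Rac activator, had 134, 142 and 131 CPM with stereotypy and 156, 152 and 134 CPM without, against 70.1, 108 and 94.9 CPM in controls. All 6 libraries lay above the controls, with a mean log2 change of 0.65 ± 0.12 (limma adjusted p = 0.0113). Chn2, a Rac GTPase activator, had 24.0, 33.0 and 28.1 CPM with stereotypy and 33.6, 32.3 and 38.0 CPM without, against 14.8, 19.6 and 22.3 CPM in controls, and its log2 change was 0.71 ± 0.14 (limma adjusted p = 0.0147). Ngef, or ephexin, an exchange factor that binds EphA4, had 997, 994 and 998 CPM with stereotypy and 1227, 1296 and 1034 CPM without, against 1314, 1525 and 1319 CPM in controls. Its libraries with the allele were all below the controls, with a log2 change of -0.35 ± 0.09 (limma adjusted p = 0.0469). Anks1b, a scaffold of the postsynaptic density related to the Eph adaptor Anks1, had a log2 change of -0.66 ± 0.09 (limma adjusted p = 0.00315), with means of 448 and 363 CPM with and without stereotypy, against 644 CPM in controls. Without stereotypy against control, limma called Tiam1 and Chn2 higher and Anks1b lower (10.7% of the 28, beside 6.77% of all genes). With stereotypy against control it called 1 higher and 2 lower (10.7%, beside 5.10%), and edgeR 0 and 2. Across both groups edgeR called 2 higher and 2 lower. Between stereotypy and no stereotypy, 2 of the 28 were called (7.14%, beside 10.2% of all genes), both higher, namely Rasa1, a Ras GTPase activator (0.52, limma adjusted p = 0.0448), and the kinase Rock1 (0.72, limma adjusted p = 0.0269).

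Of 22 listed partners of Slits and Robos, 20 were tested, and 2 were higher across both groups with the allele (beside 5.72% of all genes; median log2 change 0.02, beside 0.04). Vasp, an actin regulator of the Ena family, had 7.02, 4.85 and 5.87 CPM with stereotypy and 8.32, 6.16 and 6.43 CPM without, against 2.79, 2.43 and 1.90 CPM in controls. All 6 libraries lay above the controls, with a mean log2 change of 1.13 ± 0.15 (limma adjusted p = 0.00264). Dock1, a Rac activator, had a log2 change of 0.52 ± 0.13 (limma adjusted p = 0.0435), with means of 2.83 and 1.97 CPM with and without stereotypy, against 1.35 CPM. With stereotypy against control 3 of the 20 were higher (15.0%, beside 5.10% of all genes and 3.58% for those that were higher). They were Vasp, Dock1 and Sdc4, a membrane proteoglycan (0.73, limma adjusted p = 0.0477). Sdc4 was low, with a mean of 3.05 CPM, against 1.44 CPM in controls. Of the 20, edgeR called 2 higher and 1 lower, and DESeq2 3 higher and 2 lower. Without stereotypy against control, limma called 2 of the 20, beside 6.77% of all genes. Vasp was higher (1.239, limma adjusted p = 0.00351) and Flrt3 was lower (-0.554, limma adjusted p = 0.0224). Between stereotypy and no stereotypy, 1 of the 20 was higher and 2 were lower (15.0%, beside 10.2% of all genes). Flrt3, a membrane protein that binds Robo1, had 83.3, 89.9 and 111 CPM with stereotypy, against 53.8, 61.1 and 48.5 CPM without. It had 85.01, 76.78 and 78.71 CPM in controls, overlapping with the libraries with stereotypy and above all of those without. Between stereotypy and no stereotypy its log2 change was 0.78 ± 0.12 (limma adjusted p = 0.0154). Its relative Flrt1 was lower (-0.38, limma adjusted p = 0.0269), and so was Nell2, a secreted ligand of Robo3 (-0.35, limma adjusted p = 0.0331). Of 8 listed genes of ephrin shedding and reverse signalling, 1 was called between these groups, the scaffold Grip2, which was lower (-0.70, limma adjusted p = 0.0364); 1 of 8 is 12.5%, beside 10.2% of all genes. In the comparisons with control none of the 8 was called by limma, edgeR or DESeq2; by limma 2 had an unadjusted p under 0.05 without stereotypy, and none with stereotypy or in the mean of both groups.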

How the data were processed

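Polyribosomal RNA was precipitated with HA beads and made into libraries with a NEBNext Ultra kit, per the labels' protocols. The authors deposited 1 table of CPM per library. TopHat and GRCm38 are named in the submitters' processing notes, and no source used here names the read counter or says whether it used strand. Values were whole multiples of 1 read (within 0.1 read), so reads were recovered. Each gene that reached 1 CPM in 3 or more libraries entered a test across all genes on log2(CPM + 1) with limma 3.58.1 (R 4.3.3) in 1 fit of all 9 libraries without covariates. Benjamini-Hochberg adjustment ran over all 13695 genes with a threshold of 0.05. edgeR 4.0.16 and DESeq2 1.42.0 on recovered reads, other scalings, filters and pseudocounts, a replicate block, marker covariates and left-out libraries were alternatives. The other-neuron covariate and the joint removal of replicate 3 of 2 groups were chosen after seeing the data. Gene positions and transcript lengths came from GENCODE M21 (GRCm38). No pair of libraries agreed within sampling noise (chi-square per degree of freedom 13.1 to 119). The fit was tested on simulated data. Members and lists were chosen with earlier results of these data known. Members past the threshold in any comparison, and partner genes past it in the mean of both groups, were named by rule; partner genes named for other comparisons were chosen after their values were seen, and markers were given as counts and sums. P-values measure the spread between libraries, which may be partly technical.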

Additional observations from a re-analysis of the deposited data

Results flagged for a closer look

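For 3 guidance genes the change against control differed between the groups with the floxed allele, which is the comparison of stereotypy with no stereotypy. The difference (change with stereotypy minus change without, log2) was -1.001 for Ephb2, -1.224 for Slit1 and 0.455 for Robo2. All 3 were lost when any of 4 libraries was left out, as given above. The summed cortical markers of these groups did not overlap. Neither did the other-neuron covariate or the glial and vascular covariate, so their fits could not test the part of the markers.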

How the results depend on the processing

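No sign reversed in 326 alternative values of the 15 calls; 243 kept the call and 83 lost it. Slit1, Efnb1 and Ephb6 without stereotypy against control kept theirs in all. With stereotypy against control, 1 member was called; the count was 0 with no filter, with the glial and vascular covariate and with the 6 compared libraries only (10, 6 and 6 at an unadjusted p under 0.05, limma), and 2 with DESeq2 and with the replicate block. Without stereotypy against control, 7 became 4 with no filter, with the glial and vascular covariate and without replicate 3 of both groups. Between stereotypy and no stereotypy, 3 became 1 with no filter, 6 with DESeq2 and with 6 libraries only, and 0 with the other-neuron covariate (7 at an unadjusted p under 0.05). For both groups against control, 4 became 2 with no filter, 7 with DESeq2 and 0 with the glial and vascular covariate (9 unadjusted). The causes were not tested. Leaving out 1 library gave 0 to 2, 4 to 7, 0 to 6 and 1 to 4 members in these comparisons in turn. Over all genes, limma called 699, 927, 1398 and 784. The glial and vascular covariate left 10, 577, 188 and 66, but its range with stereotypy did not overlap with that of either other group. Between groups, correlations of deviations ran from -0.08 to 0.406 for libraries with the same replicate number and from -0.422 to 0.247 for different numbers. The highest were those of no stereotypy and control at replicate 3 (0.406) and replicate 2 (0.344). Whether the replicate numbers pair the samples was not settled. The replicate block called 2, 8, 4 and 5 members. Depth limits Epha1, Epha2, Efna4 and Ephb4, which were not tested.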
